A study of Homo sapiens with 4 samples.

Results

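NRF2 binding was examined at the genes of 6 detoxification enzymes, NQO1, GSTP1, AKR1C1, AKR1C2, AKR1C3 and AKR1B10, which were chosen by position: every peak summit within 20 kb of the hg19 region of NQO1, GSTP1, the AKR1C1 to AKR1C3 cluster or AKR1B10 was taken, whatever its score. These 4 loci held 47 of the 9717 summits in the series, or 26 of 7708 sites when summits of different libraries within 200 bp were joined. The data were NRF2 ChIP-Seq peak summits from MDA-MB-231 cells, a triple-negative human breast cancer line, grown as mammospheres, that is, floating spheres, in MammoCult medium on ultralow attachment plates. There were 2 SC libraries, from cells carrying a scrambled control (their genotype is given as Parental), and 2 ZMYND8 KO libraries, from cells in which ZMYND8, a chromatin reader protein, had been knocked out. The sources used here do not state whether the ZMYND8 KO cells were 1 clone, nor whether the libraries of a group came from separate cultures, so that the spread between them may be technical. Summit lists carry no measure of ZMYND8 itself, and the knockout was not checked here.

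NRF2, encoded by NFE2L2, is the transcription factor of the oxidative and electrophilic stress response. It is held at low level by KEAP1, which directs its degradation, and on release it pairs with a small MAF protein and binds antioxidant response elements, whose core reads TGACNNNGC. Its targets include the phase II and carbonyl-reducing enzymes described here. NQO1 is the NAD(P)H quinone reductase that keeps quinones from redox cycling, GSTP1 is the pi-class glutathione transferase that conjugates electrophiles, AKR1C1 to AKR1C3 are aldo-keto reductases of steroids, prostaglandins and lipid aldehydes, and AKR1B10 is an aldo-keto reductase of retinal and other aldehydes.

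Promoter sequences from RefSeq (GRCh38.p14, 250 bases before to 50 bases from the annotated start) were found for 5 of the 6 genes. AKR1B10 had no entry, and AKR1C3 had 2 windows. The AKR1C2 window lies inside the RefSeq gene interval (chr10:4987775-5018000), so its annotated start is not the outer end of that interval. GSTP1 is shown because it was the only one of the 5 whose window held the core, read on both strands. The core was present in 13.3% of 35116 promoter windows. In GSTP1 (chr11:67583562-67583861, plus strand) the 1 match, in capitals, began 66 bases before the RefSeq start in GRCh38. It also held TGACTCA, the motif of AP-1, found in 4.95% of windows, and the letters cannot tell the motifs apart. AKR1C1 (chr10:4963165-4963464, plus strand) and AKR1C2 (chr10:5003808-5004107, minus strand) are shown because they are nearly the same sequence, with 288 of 292 aligned bases identical (98.6%). Capitals there mark the longest stretch shared without a mismatch, 245 bases. Reads from such a stretch can be hard to place on 1 copy, and how the deposited lists treated reads with several matches is not given in the sources used here.
GSTP1: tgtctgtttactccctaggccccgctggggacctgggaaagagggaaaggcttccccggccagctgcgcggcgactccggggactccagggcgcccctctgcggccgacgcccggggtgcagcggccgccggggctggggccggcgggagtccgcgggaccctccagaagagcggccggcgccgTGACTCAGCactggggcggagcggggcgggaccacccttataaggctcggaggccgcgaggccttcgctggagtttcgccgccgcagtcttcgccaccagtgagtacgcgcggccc
AKR1C1: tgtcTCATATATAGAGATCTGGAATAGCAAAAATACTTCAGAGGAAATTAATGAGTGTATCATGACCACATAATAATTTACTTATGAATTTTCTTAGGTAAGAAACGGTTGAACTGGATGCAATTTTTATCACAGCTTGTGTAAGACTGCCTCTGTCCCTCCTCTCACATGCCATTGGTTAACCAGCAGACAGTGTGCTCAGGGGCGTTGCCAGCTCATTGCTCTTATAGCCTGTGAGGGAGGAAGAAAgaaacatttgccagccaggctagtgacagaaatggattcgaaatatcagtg
AKR1C2: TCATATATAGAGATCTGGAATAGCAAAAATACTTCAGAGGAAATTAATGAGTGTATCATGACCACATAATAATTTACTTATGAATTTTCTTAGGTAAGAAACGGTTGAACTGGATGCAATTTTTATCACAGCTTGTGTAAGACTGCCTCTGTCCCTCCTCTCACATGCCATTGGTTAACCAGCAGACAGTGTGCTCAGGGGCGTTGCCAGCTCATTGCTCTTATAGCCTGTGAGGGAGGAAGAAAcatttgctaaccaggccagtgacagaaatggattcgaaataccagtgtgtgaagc

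The lists were of unequal length. The SC replicates 1 and 2 held 2030 and 6816 summits, while 394 and 477 were held by the ZMYND8 KO replicates 1 and 2, a ratio of group means of 0.0985 (ZMYND8 KO to SC). Each summit carries a score, the −log10 of its q-value, which grows with sequencing depth. Depth is unknown here, since the lists give no read counts, so a score is given with its rank in its own list, rank 1 being the highest.

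NQO1 (chr16:69743304-69760571, minus strand) had a summit upstream of its start in all 4 lists. Distances upstream of the start, with replicate 1 first, were 450 and 457 bp in SC and 376 and 455 bp in ZMYND8 KO, within 81 bp of each other. In SC the scores were 52.7 and 39.1, ranks 39 and 74, among the top 1.97% and 1.09% of the lists. In ZMYND8 KO they were 11.3 and 28.0, ranks 170 and 49, which placed the gene in the top 44.7% of one list and the top 10.3% of the other. Both ZMYND8 KO scores were thus below both SC scores, as at 62.8% of the 239 sites called in all 4 lists (the reverse at 3.77%). The ZMYND8 KO replicates differed widely in rank. In GRCh38 the divergent transcript NQO1-DT starts 167 bases from the RefSeq NQO1 start, so that these summits lie near the start of both. The RefSeq gene is 17160 bases long and the hg19 region 17268, so the starts used for these distances may differ. The summits fall farther upstream than the promoter window searched above, in which NQO1 had no core. Beyond this site the locus held only a summit of SC replicate 2 inside the gene, 973 bp downstream of the start (score 1.6, rank 6593), and one of SC replicate 1 1063 bp upstream (score 2.79, rank 1944).

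GSTP1 (chr11:67351066-67354131, plus strand) had a summit near the start of its hg19 region in 3 of 4 lists. That region is 3066 bases long and the RefSeq gene in GRCh38 is 2842, so their starts may differ. Distances here are from the hg19 start and cannot be set against the motif position above. In the SC lists the summit lay 42 and 68 bp downstream, with scores of 8.31 (rank 601, a score shared by 68 summits) and 16.8 (rank 287). In ZMYND8 KO replicate 2 it lay 144 bp downstream, with a score of 4.61 (rank 406 of 477), and ZMYND8 KO replicate 1 listed none within 20 kb of the gene. The GSTP1 summits therefore scored below the NQO1 summit in each list that held both, and the ZMYND8 KO summit was in the lower part of its list. SC replicate 1 held a further summit 410 bp downstream (score 7.1, rank 779). SC replicate 2 held one 14475 bp upstream (score 4.91, rank 2175).

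AKR1B10 (chr7:134212344-134226166, plus strand) had summits in the SC lists only. A site 422 and 399 bp upstream of the start was called in both, with scores of 9.77 (rank 478) and 9.21 (rank 661). SC replicate 2 held another summit 810 bp upstream (score 5.85). SC replicate 1 held a pair farther out, 12127 and 11455 bp upstream (scores 8.31 and 5.41). A peak missing from a ZMYND8 KO list was below the calling threshold in that library, which does not show that NRF2 was absent there.

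**Figure D1:**
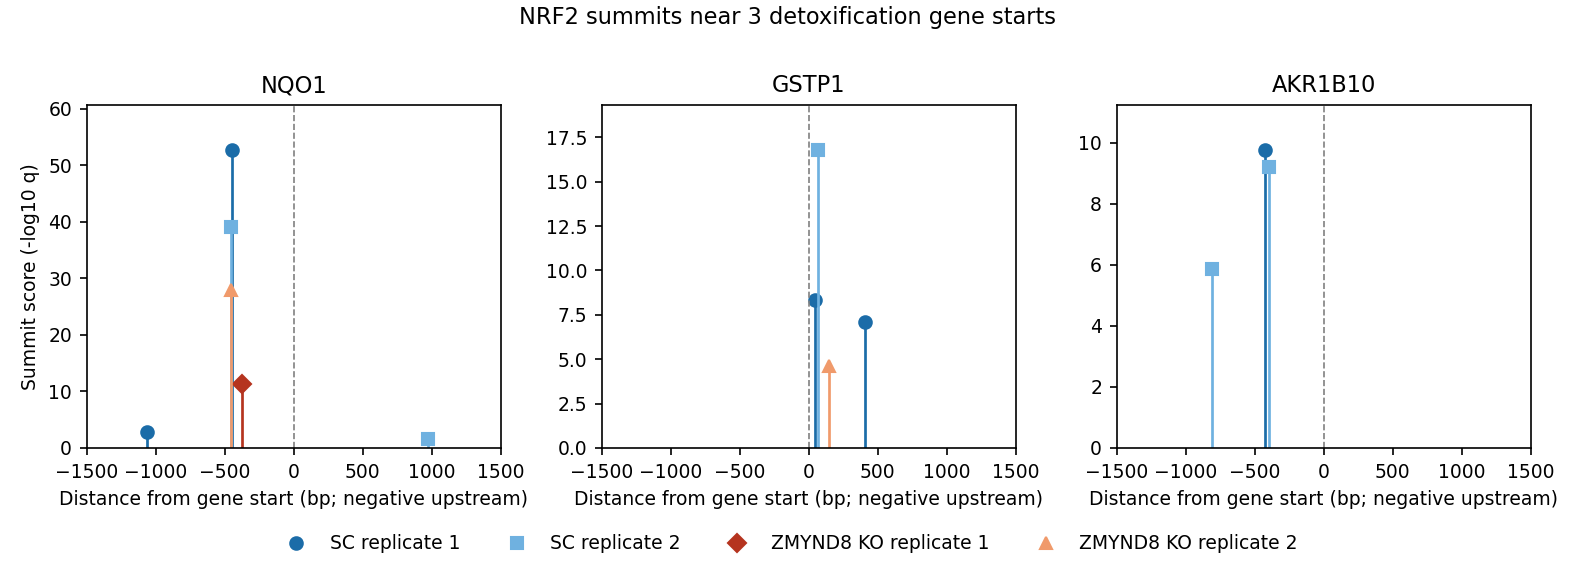
Summit score (−log10 q, linear axes that start at 0 and differ between panels) against distance from the gene start (bp, negative upstream) around the NQO1, GSTP1 and AKR1B10 starts, 1 marker per summit and 1 colour per library. Starts are those of the hg19 regions. All 4 lists have a summit 376 to 457 bp upstream of NQO1, and 3 lists have one 42 to 144 bp downstream of the GSTP1 start. AKR1B10 has summits of the SC lists alone.

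Counted within 1 kb of a start, NQO1, GSTP1 and AKR1B10 all had a summit in each SC list, 1 of the 3 (NQO1) had one in ZMYND8 KO replicate 1, and 2 of the 3 (NQO1 and GSTP1) had one in ZMYND8 KO replicate 2. Over the whole series, 35.0% of the 1190 sites in both SC lists were in at least 1 ZMYND8 KO list, and 20.1% were in both, so most sites of both SC lists were missing from the shorter ZMYND8 KO lists.

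The AKR1C1 to AKR1C3 cluster (chr10:5000000-5150000) held 31 of the 47 summits, 9 and 15 from the SC lists and 3 and 4 from the ZMYND8 KO lists. It is also the longest of the 4 regions. The cluster encodes AKR1C1, known for inactivating progesterone, AKR1C2, known for inactivating dihydrotestosterone, and AKR1C3, known for making testosterone and F-type prostaglandins. Positions are given in kb from the start of the region, because the hg19 starts of these 3 genes were not used here, and no summit is assigned to 1 of them.

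The site inside this cluster at 62.6 kb (chr10:5062506-5062691) had the highest score of the 4 loci in 3 of 4 lists, the exception being ZMYND8 KO replicate 2, where NQO1 scored higher. Its scores were 65.1 and 72.5 in SC (ranks 27 and 28), while the ZMYND8 KO scores were 20.8 and 24.5 (ranks 86 and 59). The SC summits (5062632 and 5062691) each lay more than 100 bp from the ZMYND8 KO summits (5062522 and 5062506). The groups therefore share this site at 200 bp but not at 100 bp. Both ZMYND8 KO scores were below both SC scores. A second strong site lay outside the region, 16.1 kb before its start (chr10:4983886-4983985), with scores of 27.0 and 45.5 in SC (ranks 121 and 60) and 8.77 and 22.8 in ZMYND8 KO (ranks 209 and 70). There too both ZMYND8 KO scores were below both SC scores, and as at NQO1 the lower one was that of replicate 1. Of the 239 sites called in all 4 lists, 62.8% had this order of deposited scores and 3.77% the reverse. The third site in all 4 lists, at 51.8 kb (chr10:5051677-5051878), had the opposite order, 6.9 and 4.92 in SC (ranks 788 and 1788) and 10.2 and 8.69 in ZMYND8 KO (ranks 187 and 235). No score there was above 10.2.

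Of the 13 other sites at the cluster, 1 was in both SC lists and in ZMYND8 KO replicate 2, at 121.2 kb, with scores of 8.31 and 16.1 in SC and 3.44 in ZMYND8 KO (rank 441 of 477). In both SC lists and neither ZMYND8 KO list there were 4 sites. At −16.7 kb the SC scores were 4.4 and 13.3, at −0.8 kb and at 120.5 kb they were 8.31 and 5.85, and at 113.8 kb they were 5.41 and 3.28. The remaining 8 sites were in 1 SC list each, 7 in replicate 2 and 1 in replicate 1, with scores of 2.39 to 6.28. Of the 26 sites at the 4 loci 0 were in ZMYND8 KO alone, beside 1.01% of the 7708 sites of the series (78 sites), a background too low to read anything from 0 of 26.

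**Figure D2:**
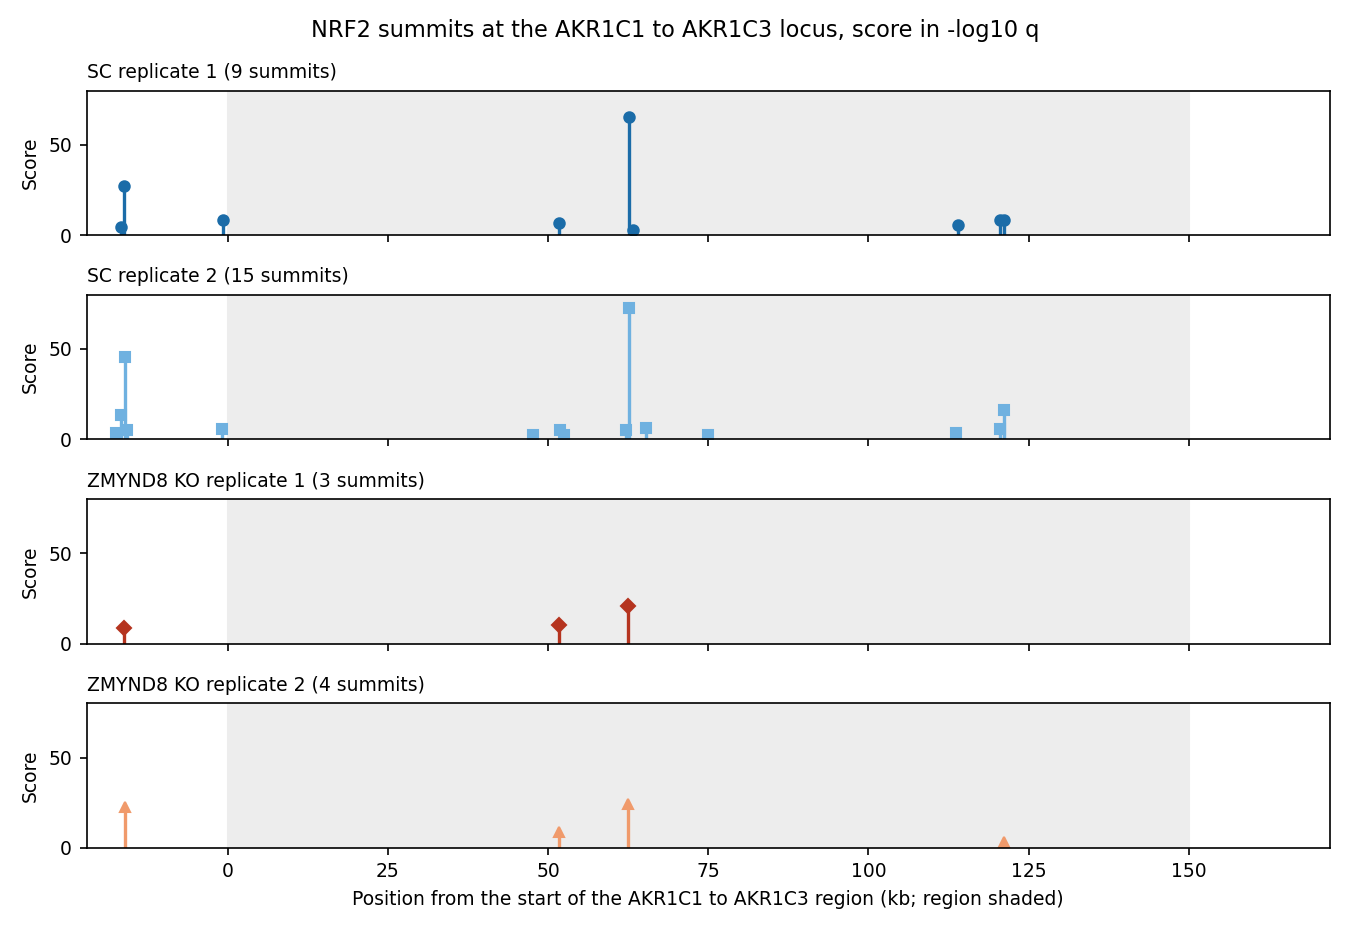
Summit score (−log10 q) against position from the start of the AKR1C1 to AKR1C3 region (kb, region shaded), 1 panel per library on the same axes. The sites at −16.1, 51.8 and 62.6 kb are in all 4 panels, and the site at 62.6 kb is the highest in each.

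Over the 4 loci together the SC lists held 16 and 21 summits, replicate 1 first, and the ZMYND8 KO lists held 4 and 6. The group means were 18.5 ± 3.54 and 5.0 ± 1.41 (SD, n = 2), a ratio of 0.27, with 0.19 to 0.375 between single libraries. The groups did not overlap, and the two-sided exact permutation test gave p = 0.33, the smallest that 2 libraries against 2 allow. Of the whole lists, the loci held 0.788% and 0.308% of SC summits and 1.02% and 1.26% of ZMYND8 KO summits, so that they made up a larger share of the shorter lists. The counts were lower in ZMYND8 KO at each locus. The means were 12.0 ± 4.24 and 3.5 ± 0.707 at the AKR1C cluster, 2.0 and 1.0 at NQO1, 2.0 and 0.5 ± 0.707 at GSTP1 and 2.5 ± 0.707 and 0 at AKR1B10 (SC and ZMYND8 KO, SD, n = 2, with no SD where both libraries had the same count).

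The 10 ZMYND8 KO summits at these loci all had an SC summit within 200 bp. These were 4 of 4 in replicate 1 and 6 of 6 in replicate 2, beside 91.1% and 88.1% over the whole lists, a share near the background. In the other direction, 6 of 16 summits of SC replicate 1 (37.5%, Wilson 95% bounds 18.5 to 61.4) and 6 of 21 of SC replicate 2 (28.6%, bounds 13.8 to 50) had a ZMYND8 KO summit within 200 bp. Over all summits of these lists the shares were 22.2% and 7.00%, inside the first interval and below the second. Without ZMYND8 KO replicate 2 the shares at the loci were 25% and 19%, with no whole-list share given for that setting. Summits are not replicates, and these intervals cover counting error only. Taken by sites, 11 at the loci were in both SC lists. Of these, 4 were in both ZMYND8 KO lists (36.4%, 15.2 to 64.6, background 20.1%) and 6 were in at least 1 (54.5%, 28 to 78.7, background 35.0%), and both intervals held the background.

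Score moved with these shares. Among SC summits at the loci with a score of at least 10, 3 of 3 in replicate 1 and 5 of 6 in replicate 2 had a ZMYND8 KO summit, against 64.3% and 55.4% of all summits so scored. Below 10, 3 of 13 and 1 of 15 had one, against 9.44% and 2.18%. Each SC summit was therefore also set beside the 100 summits of most similar score in its own list, outside the 4 loci. For the NQO1 start site 94% of such neighbours had a ZMYND8 KO summit in either SC list. For the AKR1C site at 62.6 kb the shares were 94% and 97%, and for that at −16.1 kb they were 82% and 95%, so that these 3 sites were called in ZMYND8 KO as most sites of their score were. The AKR1C site at 51.8 kb had a ZMYND8 KO summit in both lists, where 11% and 1% of its neighbours had one in at least 1 list. The share of neighbours with one in both lists was not taken, and the site is singled out here by its values. Its summits spanned 201 bp, however, and that of SC replicate 2 had only the ZMYND8 KO replicate 1 summit within 200 bp. For the AKR1B10 start site, in neither ZMYND8 KO list, the shares were 27% and 13%. For the GSTP1 start site, present in 1 ZMYND8 KO list, they were 19% and 42%.

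**Figure D3:**
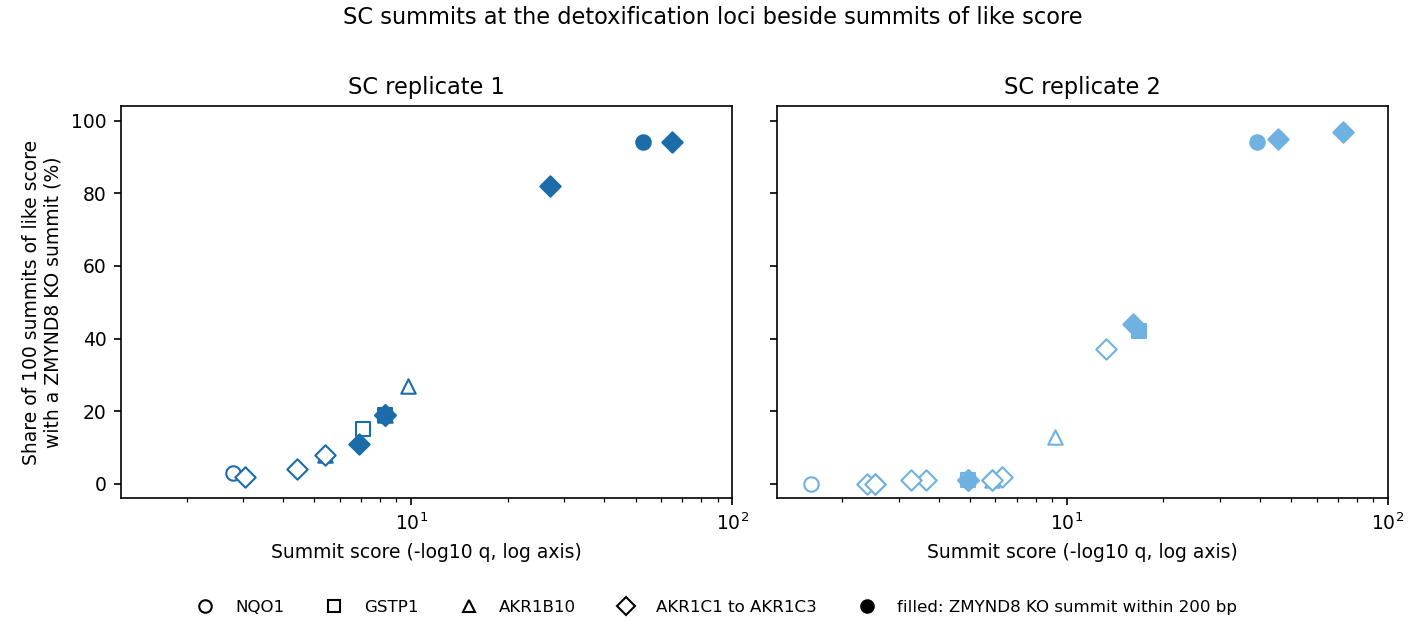
Share (%) of the 100 SC summits of most similar score outside the loci that have a ZMYND8 KO summit within 200 bp, against the score of each SC summit at the loci (−log10 q, log axis), 1 panel per SC library. Filled markers have a ZMYND8 KO summit themselves. The filled diamonds at shares of 11% and 1% are the AKR1C site at 51.8 kb.

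To compare sites on a common scale, each score was divided by the median score of the 239 sites called in all 4 lists (23.0 and 23.7 in SC, 13.3 and 13.6 in ZMYND8 KO), and log2 was taken. This relative scale gives the median site the same value in every list, which removes a change shared by all sites. The median difference of the 239 sites, ZMYND8 KO minus SC, is therefore small by construction and was 0.05 (quartiles −0.36 and 0.38). On log2 of the deposited scores it was −0.74 (quartiles −1.15 and −0.41). Both deposited scores of ZMYND8 KO were below both of SC at 62.8% of the 239 sites, as at NQO1 and the AKR1C sites at 62.6 and −16.1 kb, and above both at 3.77%, as at 51.8 kb.

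At NQO1, whose site was the only one in all 4 lists within 1 kb of the NQO1, GSTP1 or AKR1B10 start (the AKR1C starts were not examined), the relative score was 1.20 and 0.73 in SC and −0.24 and 1.04 in ZMYND8 KO. The ZMYND8 KO values lay on either side of the lower SC value, so the groups overlapped. The means were 0.96 ± 0.33 and 0.40 ± 0.90 (SD, n = 2), a difference of −0.56 that was smaller than the spread of ZMYND8 KO (two-sided exact permutation p = 0.67). Of the 239 sites, 17.2% had a difference at or below that of NQO1.

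The AKR1C sites differed from each other. At 62.6 kb the relative score was 1.50 and 1.61 in SC and 0.64 and 0.85 in ZMYND8 KO, with no overlap and a difference of −0.81, and 8.79% of sites were at or below it. At −16.1 kb it was 0.23 and 0.94 in SC and −0.60 and 0.74 in ZMYND8 KO, and the groups overlapped, with a difference of −0.52 and 19.7% of sites at or below it. At 51.8 kb it was −1.74 and −2.27 in SC and −0.38 and −0.65 in ZMYND8 KO, a difference of 1.49, which 97.9% of sites were at or below. Few SC summits of such low score had a ZMYND8 KO summit, so sites like this entered the 239 through their ZMYND8 KO calls. Its place among the 239, on either scale, is therefore no test of a gain. Both relative scores of ZMYND8 KO were below both of SC at 20.5% of the 239 sites and above both at 23.8%, so neither order was rare. The difference at 51.8 kb was −0.27 when scores were divided by the median of the whole list instead.

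**Figure D4:**
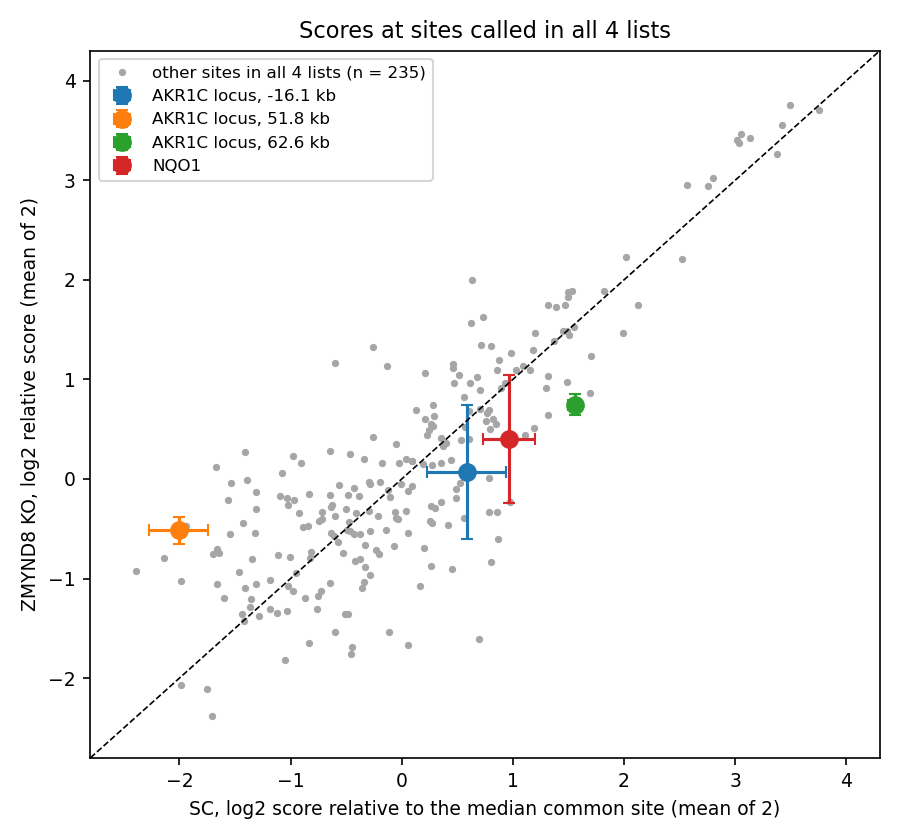
Mean log2 relative score in ZMYND8 KO against SC (2 libraries each) for the 239 sites called in all 4 lists. Large markers are the NQO1 and AKR1C sites with bars from the lower to the higher library, grey points are the other 235 sites, and the dashed line marks equal values. NQO1 and the sites at −16.1 and 62.6 kb lie below the line and the site at 51.8 kb lies above it.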

How the data were processed

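NRF2 ChIP-Seq was done in duplicate on SC and ZMYND8 KO mammospheres. Per the labels, the submitters' processing notes name FastQC 0.11.2, Bowtie2 2.2.3, Picard 1.127 and MACS2 2.0.10, and the builds hg19 and hg38 with no role. The authors deposited 1 summit list per library, with a score in −log10 q-value (the lowest fits a q-value threshold of 0.05). Read counts, control libraries and peak widths were not analysed here, so depth is unknown.

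The lists were read as hg19. Of NQO1, GSTP1 and AKR1B10, 3 and 3 in the SC lists and 1 and 2 in the ZMYND8 KO lists had a summit within 1 kb of the hg19 start, against 0 in each list with GRCh38 starts. Gene starts are the ends of the hg19 regions, and the AKR1B10 strand is textbook knowledge. They may differ from the RefSeq starts in GRCh38 that anchor the promoter windows. Exon annotation in hg19, and other detoxification genes that need it, were not analysed here. All 6 genes and every summit within 20 kb are covered. The genes, regions and lists were chosen with earlier results of these data known.

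Analyses used Python 3.11.15 with numpy 2.4.6, pandas 2.3.3, scipy 1.17.1 and biopython 1.88 (promoter alignment). Sites were joined by single linkage at 200 bp. Site joining and shares were tested on simulated data. Groups were compared by exact permutation over libraries, which cannot go below p = 0.33 with 2 against 2. Alternatives changed windows, distances, score thresholds, scaling, libraries and pairing. No source ties a replicate number to a shared batch, and with only 2 pairs the pairing could not be checked.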

Additional observations from a re-analysis of the deposited data

How the results depend on the processing

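The ratio of summits at the 4 loci, ZMYND8 KO to SC (0.27), was 0.286 with windows of 5 kb, 0.268 with 50 kb, 0.303 with summits of 1 library within 500 bp counted once, and 0.216 to 0.324 when each library was left out in turn. It was 0.667 at scores of at least 10 and turned to 1.14 among the 300 highest summits of each list, where each library held only 3 or 4 at the loci. With GRCh38 positions it was 0.292, all from the AKR1C cluster, whose intervals overlap between the builds. With a replicate block, pairing libraries of the same number, it was 0.268 (0.25 and 0.286, exact permutation p = 0.5, the smallest that 2 pairs allow), and the NQO1 difference stayed at −0.56 (−1.43 and 0.31, exact permutation p = 1.0).

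The share of SC summits that had one in ZMYND8 KO (37.5% and 28.6% for SC replicates 1 and 2) was 25% and 19% at 100 bp and, again, without ZMYND8 KO replicate 2. It was 43.8% and 38.1% at 500 bp, 68.8% and 52.4% at 1000 bp, 100% and 50% with scores of at least 10 required in all lists, and 100% and 75% among the 300 highest. Whole-list shares at these settings are not given here, and a wider distance can only raise such a share in any list. These values therefore do not show whether the loci differ from the rest of the list. The NQO1 relative difference ran from −1.20 without ZMYND8 KO replicate 2 to 0.08 without ZMYND8 KO replicate 1, so its direction rests on that library. It was −1.35 on deposited scores, −2.32 with scores divided by the list median and −0.25 in fractional rank. At scores of at least 10, SC replicate 1 had 1 gene, not 3, with a summit within 1 kb of the start, and ZMYND8 KO replicate 2 had 1, not 2. The comparison of relative scores at the AKR1C sites in all 4 lists, with its scalings, was added after the data were seen. At 51.8 kb the difference of 1.49 was 0.70 on deposited scores and −0.27 with scores divided by the list median. At 62.6 kb the difference of −0.81 was −1.60 and −2.57 on these scales. At −16.1 kb that of −0.52 was −1.31 and −2.27, so the size of each difference depended on the scaling. Unknown depth, with 2 libraries a group, limits every comparison of scores and of peaks that were not called. The cause of these changes was not tested.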
